A study of Triticum aestivum with 6 samples.

Results

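The TFL1-like genes of common wheat (Triticum aestivum) were examined in axillary buds, which form where a leaf meets the stem and can grow out as tillers. The genes were chosen by identifier: the 9 wheat genes that the study listed as TFL1-like, and the 3 homoeologs of FT1 (also called VRN3), which belong to the same protein family. Of these 12 identifiers, 7 TFL1-like genes were analysed, out of 70043 genes with at least 1 count in some library. They were TaTFL1-U (TraesCSU02G202000), TaTFL1-2B (TraesCS2B02G310700), TaTFL1-2D (TraesCS2D02G292000), TaTFL1-4A (TraesCS4A02G409200), TaTFL1-4D (TraesCS4D02G305800), TaTFL1-5A (TraesCS5A02G128600) and TaTFL1-5B (TraesCS5B02G127600). TaTFL1-4B, TaTFL1-5D and the FT1 homoeologs TraesCS7A02G115400, TraesCS7B02G013100 and TraesCS7D02G111600 were not analysed here. The results therefore concern TFL1-like genes alone and give no value for the balance of TFL1 against FT1.

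RNA from axillary buds was sequenced for the tatfl1-5 mutant (genotype aabbdd) and for its wild type, the spring wheat Fielder, with 3 biological replicates each, 6 libraries in all. The mutant is a single transgene-free line derived from CRISPR/Cas9 editing. Its TaTFL1-5 copies on the A, B and D subgenomes carry deletions or an insertion that end the protein early. The deletion in the A copy is by far the longest of these edits. Fielder carries none of these edits, and the study describes no treatment of either genotype. The results and the methods of the study state different ages for the mutant seedlings, so no age is given here.

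TFL1 and FT are phosphatidylethanolamine-binding proteins (PEBP), small proteins that act with the bZIP factor FD and 14-3-3 proteins at the promoters of flowering genes. In Arabidopsis, FT is the mobile signal that promotes flowering, whereas TFL1 competes with it, delays flowering and keeps the shoot meristem indeterminate. The cereal relatives carry this role into shoot branching: RCN genes act on panicle branching in rice, and HvCEN acts on tiller and spikelet number in barley. The genes that encode FD and 14-3-3 proteins in wheat were not analysed here.

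The sequences that define the mutant are the guides, which were designed on stretches shared by the TaTFL1-5 homoeologs on chromosomes 5A, 5B and 5D. Both guides were read from the study's primers for the knockout vector. The forward primer for the in situ probe begins with an ATG, and its last 4 bases, in capitals, are also the first 4 bases of guide 1.
Probe primer: atgtctaggtctgtGGAA
Guide 1: GGAAcctcttattgtggggc
Guide 2: ccatgagctctacccatcag

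The homoeologs of TaTFL1-5 were told apart in genotyping by primers at which they differ. The reverse primers for TaTFL1-5A and TaTFL1-5B are shown as an example of how alike the copies can be. Whether these primers lie in transcribed sequence was not examined. RNA reads from stretches alike in both copies may be counted on either copy or on neither, and how often this occurred was not measured. Capitals mark the bases without a match in the alignment of the pair, 1 in the 5A primer and 3 in the 5B primer, and the last bases of the 5A primer lie beyond the end of the 5B primer.
TaTFL1-5A: cgtAacatatgacaaaatggctcccat
TaTFL1-5B: cgtGacATatatgacaaaatggctcc

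The library totals ranged from 13320461 to 17174131 counts, and 52228 genes passed the filter on low counts and were tested. Levels of a gene between libraries are given as CPM, counts scaled to a common library total with the TMM factors of edgeR, in which 1 count was worth between 0.0583 and 0.0725 CPM. Levels of different genes are compared as FPKM, the deposited value scaled by gene length and library total. A gene was called when the Benjamini-Hochberg adjusted p of edgeR's quasi-likelihood test was under 0.05 and its log2 fold change was beyond 1 in either direction. The labelled tissue was checked against genes that the study had itself picked as differentially expressed in these libraries, so their direction is no independent evidence. The meristem gene TraesCS1D02G075700, annotated as a KN1-type homeobox factor, had between 9.39 and 11.1 CPM in the mutant and between 2.44 and 5.07 CPM in Fielder. The 7 photosynthesis antenna genes among those picked, a mark of green tissue, summed to between 52.6 and 56.6 CPM in the mutant and to between 0.145 and 1.93 CPM in Fielder. Antenna genes that the study did not pick have no part in these sums, so the sums give no level of the antenna as a whole. Of these 7, TraesCS1A02G403300 and TraesCS1D02G375100 were at 0 counts in every Fielder library, 6 were tested and all 6 were called higher. The part that this difference has in the values below was not tested, and in whole buds fewer cells of a type and less RNA per cell cannot be told apart.

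None of the 7 TFL1-like genes was called between the mutant and Fielder, and 13.7% of all tested genes were called. With 7 genes, some of them with few counts, 0 called cannot be told apart from that share. All 7 passed the filter on low counts. With no limit on the fold change, 0 of the 7 had an adjusted p under 0.05, against 26.5% of all tested genes. An unadjusted p under 0.05 was reached by 2 of the 7, TaTFL1-2B and TaTFL1-4D, against 38.3% of all tested genes. DESeq2 also called 0, with 1 at an unadjusted p under 0.05. For 4 of the 7 the mutant libraries did not overlap the Fielder libraries in CPM, TaTFL1-5A and TaTFL1-5B on the lower side and TaTFL1-2B and TaTFL1-4D on the higher side. The groups did not overlap for 43.1% of all tested genes, and the count of 4 of 7 is read against that share. The median log2 fold change was 0.01 over the 7 genes and 0.00 over all tested genes, and the median size of the change without its sign was 0.62 and 0.48.

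Of the edited genes, TaTFL1-5A and TaTFL1-5B were analysed, and TaTFL1-5A had the lowest level per length of the 7 genes in each mutant library. TaTFL1-5A had 1, 7 and 5 counts in mutant replicates 1, 2 and 3, against 9, 14 and 21 counts in Fielder replicates 1, 2 and 3. Every mutant library was below every Fielder library, and mutant replicate 1 was close to no signal. The level of TaTFL1-5A averaged 0.281 ± 0.200 CPM in the mutant and 0.925 ± 0.286 CPM in Fielder (SD, n = 3 each). The fitted mutant level was 0.306 of the Fielder level (95% interval from 0.0887 to 1.05), and the adjusted p was 0.147 in edgeR's quasi-likelihood test. The gene had 13 counts in the mutant and 44 in Fielder in all. Without mutant replicate 1 the log2 fold change was -1.23, against -1.71 with all libraries.

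TaTFL1-5B, the homoeolog on the B subgenome, had more counts. It had 20, 19 and 23 counts in the 3 mutant libraries and 46, 44 and 31 in the 3 Fielder libraries. The mutant libraries lay close together, and the Fielder replicate 3 was the nearest to them. TaTFL1-5B averaged 1.32 ± 0.169 CPM in the mutant and 2.66 ± 0.780 CPM in Fielder (SD, n = 3 each). The fitted mutant level was 0.499 of the Fielder level, with a 95% interval that began at 0.249 and reached equality, and the adjusted p was 0.131 in the edgeR fit. The deposited counts do not show at which position of the gene a read fell. The deletion in the B copy is far shorter than that in the A copy, and the part of the deleted bases in the lower counts of either gene was not tested.

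The balance between both edited copies was not distinguishable between the genotypes. TaTFL1-5A made up 4.76%, 26.9% and 17.9% of the summed counts of TaTFL1-5A and TaTFL1-5B in mutant replicates 1, 2 and 3. The shares in Fielder replicates 1, 2 and 3 were 16.4%, 24.1% and 40.4%. The 95% Wilson intervals of the mutant shares reached from 0.846% to 46.1% and those of the Fielder shares from 8.86% to 53.9%, which cover counting error only. Per length, TaTFL1-5B was above TaTFL1-5A in each of the 6 libraries.

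The genes numbered 2 and the unplaced TaTFL1-U were the most abundant of the TFL1-like genes analysed, in both genotypes. Of these, TaTFL1-2D is known for raising spikelet production when overexpressed in wheat. TaTFL1-U, whose identifier names no chromosome, had 197, 326 and 188 counts in the mutant and 131, 123 and 244 in Fielder. The groups overlapped, with mutant replicate 2 highest and Fielder replicate 3 second. The log2 fold change of TaTFL1-U was 0.52 ± 0.27 (standard error; adjusted p = 0.173 in edgeR), and it was 0.21 without mutant replicate 2. Without Fielder replicate 3 it was 0.79 (adjusted p = 0.0491 in edgeR), a change inside the limit on the fold change and so not called.

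TaTFL1-2B had 123, 200 and 101 counts in the mutant, against 82, 83 and 108 in Fielder. On the CPM scale every mutant library was above every Fielder library, although mutant replicate 3 (6.65 CPM) and Fielder replicate 3 (6.29 CPM) nearly met. TaTFL1-2B averaged 9.02 ± 3.39 CPM in the mutant and 5.86 ± 0.486 CPM in Fielder (SD, n = 3 each). Its fitted level was 1.54-fold that of Fielder (95% interval from 1.01 to 2.34), and this difference did not pass the adjustment (adjusted p = 0.120 in edgeR). Mutant replicate 2 decided most of its size, since the log2 fold change was 0.62 with all libraries and 0.27 without it.

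TaTFL1-2D, the homoeolog on the D subgenome, had 90, 125 and 120 counts in the mutant and 126, 103 and 154 in Fielder. The groups overlapped widely. Its log2 fold change of -0.21 ± 0.25 (standard error) had an interval from 0.594-fold to 1.27-fold, which leaves out a 2-fold difference in either direction. TaTFL1-2B made up 56.3%, 60.1% and 44.2% of the summed FPKM of TaTFL1-2B and TaTFL1-2D in the mutant replicates, and 38.0%, 43.2% and 39.8% in the Fielder replicates. In Fielder TaTFL1-2D was thus above TaTFL1-2B in each library, whereas in the mutant TaTFL1-2B was above TaTFL1-2D in replicates 1 and 2. The 2 sets of shares did not overlap, with mutant replicate 3 next to Fielder replicate 2, and no test was made of this ratio.

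The genes numbered 4 differed from each other. TaTFL1-4D had 39, 34 and 43 counts in the mutant, against 14, 22 and 19 in Fielder. Every mutant library was above every Fielder library. It averaged 2.47 ± 0.329 CPM in the mutant and 1.18 ± 0.209 CPM in Fielder (SD, n = 3 each), and its fitted level was 2.08-fold that of Fielder (95% interval from 1.03 to 4.21). Its unadjusted p was 0.0421 and its adjusted p 0.115 in edgeR. The value kept its direction with any library left out, with log2 fold changes from 0.95 to 1.20. TaTFL1-4D was called in 1 alternative fit, a filter that asked for 10 or more counts in each library (adjusted p = 0.0443 in edgeR).

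TaTFL1-4A had 31, 20 and 20 counts in the mutant, and 1, 36 and 35 in Fielder. Fielder replicate 1 stood apart with its single count, while both other Fielder libraries were above all mutant libraries. The fitted log2 fold change was 0.01 ± 0.76 (standard error), the widest error on this scale apart from TaTFL1-5A. Without Fielder replicate 1 it was -0.53 ± 0.50 (standard error; adjusted p = 0.490 in edgeR), and without mutant replicate 1 it was -0.19, so its direction turned with a single library. As a share of the summed FPKM of TaTFL1-4A and TaTFL1-4D, TaTFL1-4A took 37.4%, 30.7% and 25.9% in the mutant replicates and 5.09%, 55.2% and 58.1% in the Fielder replicates.

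**Figure D1:**
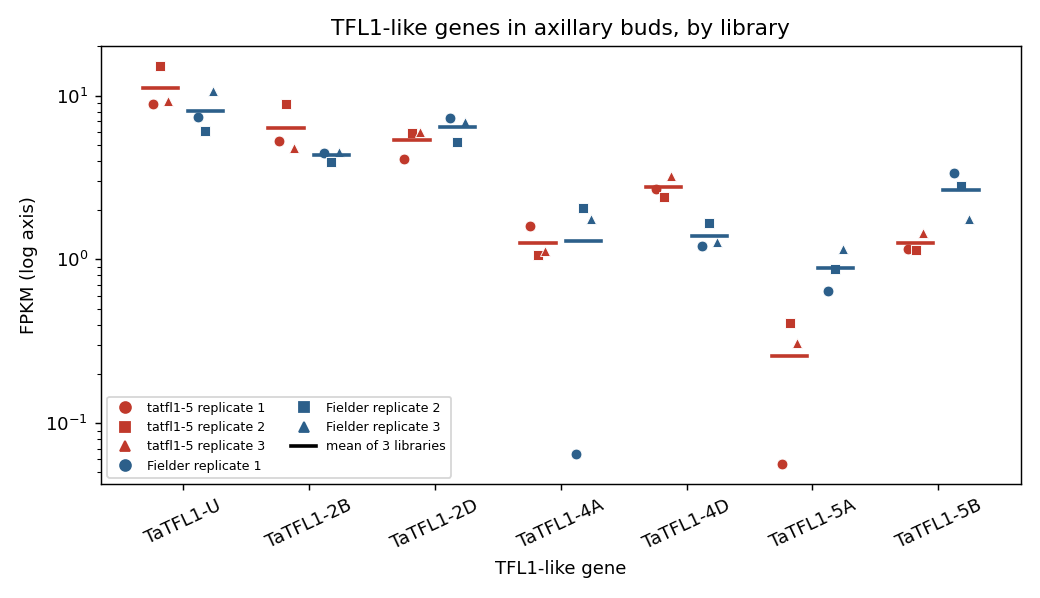
FPKM (log axis) of each of the 7 TFL1-like genes in every library, with tatfl1-5 in red left of Fielder in blue; symbols are single libraries and bars the mean of 3. The 3 mutant libraries of TaTFL1-5A and of TaTFL1-5B sit below the 3 Fielder libraries, and the single count of TaTFL1-4A in Fielder replicate 1 lies far below the others.

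**Figure D2:**
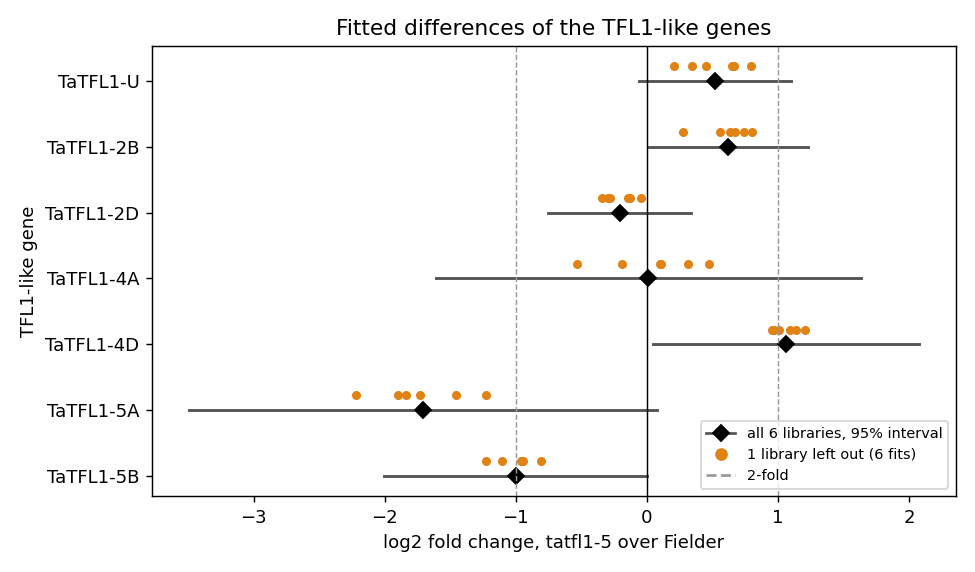
Log2 fold change of tatfl1-5 over Fielder for each TFL1-like gene in edgeR, with the 95% interval over all 6 libraries (diamond and line) and the 6 values with 1 library left out (orange points). Points for TaTFL1-4A lie on both sides of 0, from -0.53 to 0.47, whereas the points of the other 6 genes stay on one side.

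The order of the TFL1-like genes by level per length was read from FPKM. In the mutant, the means were 11.1 for TaTFL1-U, 6.34 for TaTFL1-2B, 5.35 for TaTFL1-2D, 2.77 for TaTFL1-4D, 1.27 for TaTFL1-4A, 1.25 for TaTFL1-5B and 0.257 FPKM for TaTFL1-5A. In Fielder, the means were 8.10 for TaTFL1-U, 6.45 for TaTFL1-2D, 4.32 for TaTFL1-2B, 2.64 for TaTFL1-5B, 1.39 for TaTFL1-4D, 1.29 for TaTFL1-4A and 0.887 FPKM for TaTFL1-5A. By these means TaTFL1-U was first and TaTFL1-5A last in both genotypes. TaTFL1-5B was below TaTFL1-4D in every mutant library and above it in every Fielder library. TaTFL1-5B and TaTFL1-4A overlapped in both genotypes. Not all steps of this order exceeded the spread. In the mutant the ranges of neighbours overlapped for TaTFL1-U and TaTFL1-2B, for TaTFL1-2B and TaTFL1-2D, and for TaTFL1-4A and TaTFL1-5B. In Fielder they overlapped for TaTFL1-U and TaTFL1-2D, for TaTFL1-4D and TaTFL1-4A, and for TaTFL1-4A and TaTFL1-5A. The mean level of TaTFL1-U was above that of 83.2% of the 70043 genes in the mutant and 75.6% in Fielder, and that of TaTFL1-5A above 21.2% and 33.7%.

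The summed level of the 7 genes overlapped between the genotypes, and the share of the edited genes did not. The summed level was 23.8, 35.1 and 26.1 FPKM in the mutant libraries and 24.4, 22.7 and 28.1 FPKM in the Fielder libraries, with overlap between the groups. TaTFL1-5A and TaTFL1-5B together made up 5.10%, 4.41% and 6.74% of this sum in mutant replicates 1, 2 and 3. In Fielder replicates 1, 2 and 3 they made up 16.3%, 16.2% and 10.3%. The groups did not overlap, and the means were 5.42% ± 1.20 in the mutant and 14.3% ± 3.44 in Fielder (SD, n = 3 each). TaTFL1-2B, TaTFL1-2D and TaTFL1-U together held 79.7% ± 5.14 of the sum in the mutant and 74.9% ± 6.51 in Fielder, a difference within the spread between libraries. TaTFL1-4A and TaTFL1-4D together held 14.9% ± 4.32 in the mutant and 10.8% ± 5.59 in Fielder. Shares of one sum are tied to each other, so a lower share of the edited genes raises the others, and no test was made of them. The list was incomplete, since TaTFL1-4B and TaTFL1-5D have no part in these sums.

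**Figure D3:**
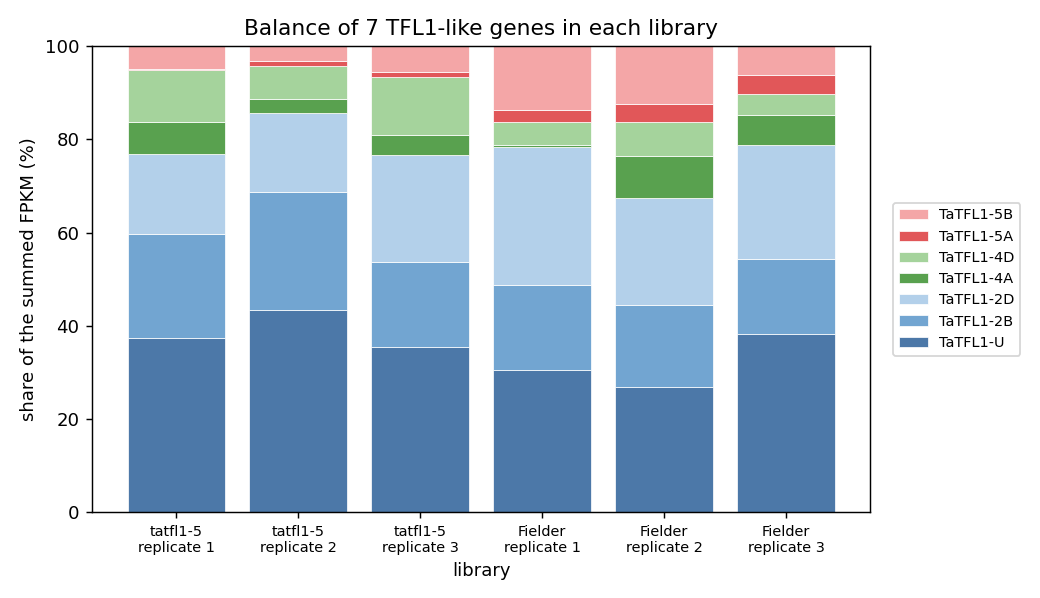
Share (%) of each TFL1-like gene in the summed FPKM of the 7 genes, as a stacked bar for each library, with the 3 tatfl1-5 libraries left of the 3 Fielder libraries. The red segments of TaTFL1-5A and TaTFL1-5B take 4.41% to 6.74% in the mutant and 10.3% to 16.3% in Fielder, whereas the blue segments of TaTFL1-U, TaTFL1-2B and TaTFL1-2D take most of every bar.

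**Figure D4:**
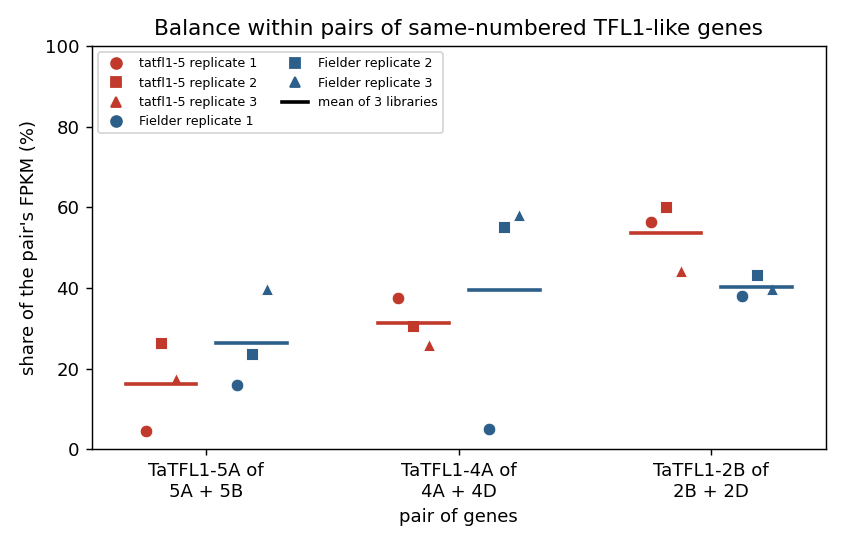
Share (%) of the first gene in the summed FPKM of each pair of same-numbered TFL1-like genes, by library, with tatfl1-5 in red left of Fielder in blue and bars for the mean of 3. The shares of TaTFL1-2B do not overlap between the genotypes (44.2% to 60.1% and 38.0% to 43.2%), and those of TaTFL1-5A and TaTFL1-4A do.

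Among the 7 genes, TaTFL1-U and TaTFL1-2B followed each other most closely over the 6 libraries, with a Pearson correlation of 0.89 between their log2 CPM values. Both were highest in mutant replicate 2. These copies may share reads, and 6 libraries in 2 genotypes are few for such a value, so it is given as a description. Of the 49017 other genes with a mean of at least 1 CPM, those most like TaTFL1-U, the member with the most counts, were TraesCS1A02G164800, TraesCS2D02G198800 and TraesCS4B02G052300, with Pearson correlations of 0.998, 0.997 and 0.993; none was called. A correlation above 0.95 with TaTFL1-U was reached by 96 genes.

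The SPL and TaPIL1 genes that the study named in connection with tillering were counted in the same fit. Of the 8 SPL genes, which encode transcription factors that act on branching, 6 were called higher and 2 were not called. Of all 52228 tested genes, 4170 were called higher, and 13.7% were called in either direction. The 2 uncalled genes, TraesCS2B02G250900 and TraesCS7A02G246500, also had positive log2 fold changes, 2.43 and 1.51 (adjusted p = 0.0594 and 0.0510 in edgeR). Both TaPIL1 genes, which encode phytochrome-interacting factors that repress tillering, were called higher. The study chose these 10 genes as differentially expressed in the same libraries, so the counts are not independent evidence of a direction.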

How the data were processed

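RNA-seq libraries of axillary buds were grouped by the genotype and numbered by the replicate in the sample titles. Filtered reads were mapped by the authors to the Ensembl Plants wheat reference, normalised by them with DESeq2 for their own tests, and deposited as raw counts per gene. The deposited FPKM values were derived by the authors from these counts, since the counts and FPKM of each TFL1-like gene give the same gene length, rounded to a base, in every library. Which aligner and counter were run is not given in the sources used here. The labels and the methods name different library kits.

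The mutant was compared with Fielder in edgeR 4.0.16 (R 4.3.3) with filterByExpr, TMM scaling and no covariate, over all 6 libraries. P-values were adjusted over 52228 genes. The tests were first checked on simulated counts. A standard error is the size of the log2 fold change over the square root of F. Alternatives were RLE factors, library size alone, DESeq2 1.42.0, other filters, a replicate block, each library left out, and limma-trend (limma 3.58.1) on log2 values of FPKM with a pseudocount of 0.1 or 1. Shares were calculated in Python 3.11.15 with pandas 2.3.3, scipy 1.17.1 and numpy 2.4.6, and plotted with matplotlib 3.10.9.

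The genes, lists and tests were chosen with earlier results of these data known. Named genes were all 7 members, and the 3 genes most correlated with the member of highest summed counts. Guides were read from the study's primer list as the 20 bases shared by the vector primers. The replicates are described as biological repeats, with nothing on separate plants or pools, so p-values measure the spread between these libraries. The RefSeq gene table held no match for these identifiers, so no positions in bases are given.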

Additional observations from a re-analysis of the deposited data

How the results depend on the processing

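No TFL1-like gene was called in 13 of the 14 alternative fits. The exception was the filter of at least 10 counts in every library, with 1 called gene, TaTFL1-4D (log2 fold change 1.07), in a fit that tested 5 of the 7 genes. An adjusted p under 0.05 with no limit on the fold change was met by 13825 of all genes and by 0 of the 7. Among the alternatives it was met, besides that called gene, by TaTFL1-4D on log2(FPKM + 0.1) (adjusted p = 0.0402 in limma), by TaTFL1-4D, TaTFL1-5A and TaTFL1-5B on log2(FPKM + 1), and by TaTFL1-U without Fielder replicate 3 (adjusted p = 0.0491 in edgeR), each with a change within 2-fold on its scale. TaTFL1-4A changed direction with library size alone (-0.045), without mutant replicate 1 (-0.19) and without Fielder replicate 1 (-0.53) and, over the fits that left out 1 library, ranged from -0.53 to 0.47. The other 6 genes kept their direction in every alternative. With the replicate block, 7225 genes and 0 of the 7 were called, against 7172 and 0 without it. An unadjusted p under 0.05 was then reached by 0 of the 7, against 2 without the block. With it, the unadjusted p in edgeR was 0.0717 for TaTFL1-2B and 0.0736 for TaTFL1-4D. The deviations of same-numbered libraries correlated at -0.02, 0.05 and 0.01, so no effect shared by same-numbered libraries was seen. Values near 0 cannot show whether the samples were collected or prepared in pairs. With 1 library left out, between 6174 and 8330 genes were called. The mean share of TaTFL1-5A and TaTFL1-5B differed by -8.89 percentage points on FPKM and by -7.41 on CPM.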

Other observations

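The single count of TaTFL1-4A in Fielder replicate 1 was not shared by its neighbours. Of the 20 listed genes nearest to it on chromosome 4A in identifier order, 14 had at least 20 counts in Fielder replicates 2 and 3. Of these, 0 had at most 1 count in Fielder replicate 1. The lowest, TraesCS4A02G410400, had 4 counts there, against 21 and 27 in Fielder replicates 2 and 3. Among the tested genes, which had passed the filter on low counts, 44268 had at least 20 counts in both other Fielder libraries. Of these, 56 had at most 1 count in Fielder replicate 1. The same measure gave between 1 and 28 genes in the other 5 libraries. TaTFL1-4A was singled out for this after its values were seen.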
